A study of Mus musculus with 18 samples.

Results

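DERARE knockout and wild-type long-term hematopoietic stem cells (LT-HSCs), both carrying the Wnt5a label, were compared across all genes. The comparison used 6 of the 18 RNA-seq libraries of the series, 3 labelled Wnt5a and 3 labelled KO Wnt5a, and 12084 of the 44349 genes in the deposited table passed its filter of at least 1 FPKM in at least 3 of those 6 libraries. FPKM is the number of fragments on a gene, scaled to transcript length and library size. The Wnt5a group is taken as wild type for DERARE because its columns in the deposited table are named so, while its genotype label gives only the ligand. The KO Wnt5a group carries the DERARE knockout, and its genotype label adds the word rescue. LT-HSCs had been sorted from mouse bone marrow as lineage-negative, Sca-1-positive, c-Kit-positive, CD34-negative, Flk2-negative cells with low CD49b, and cDNA had been made with a low-input SMARTer kit. A second genotype pair, KO Ctrl against WT, has no Wnt5a label and shares no library with the first, so it served as the comparison. The labels used here give neither the route nor the duration of Wnt5a exposure, and they do not state whether the knockout is constitutive or whether replicates came from separate mice. The p-values therefore measure only the spread between libraries within groups, which the fit pools over all 18.

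DERARE is a distal retinoic acid response element in the Hoxb gene cluster, where it acts as an enhancer for several Hoxb genes. Retinoic acid receptors bind such elements as heterodimers with RXR proteins. Wnt5a is a secreted ligand that signals mainly through noncanonical routes, without beta-catenin, by way of Frizzled, Ror and Ryk receptors and small GTPases such as Cdc42 and Rac. LT-HSCs are rarely dividing cells that can rebuild every blood lineage, and a part of them carries transcripts of the megakaryocyte lineage.

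All 9 LT-HSC markers examined passed the filter in the 6 libraries, among them Procr at 7.52 to 8.76 FPKM, Meis1 at 89.3 to 98.0 FPKM and Mecom at 8.12 to 19.6 FPKM. Flt3, which encodes Flk2, stayed below 1 FPKM in all 6, as did Itga2, which encodes CD49b. Cd34 transcripts, in contrast, were at 299.8 to 357 FPKM although the gate was CD34-negative. Markers of mature cells were mostly low: C1qa, Cd3e and Ngp were listed at 0 in all 6 libraries, and Csf1r did not exceed 0.348 FPKM. Lyz2 was present at 96.9 to 146 FPKM, Nkg7 at 43.3 to 65.8 FPKM and Pf4 at 6682 to 26280 FPKM. Wnt5a RNA itself did not exceed 0.078 FPKM. The smallest steps between low FPKM values imply about 30900000 to 32400000 fragments in the Wnt5a libraries and 35500000 to 37200000 in the KO Wnt5a libraries.

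Wnt5a replicate 3 was closer to the WT libraries than to its own group. It correlated at 0.964 and 0.966 with the other Wnt5a libraries (Pearson's r of log2(FPKM + 1) across genes) but at 0.969 to 0.974 with the 3 WT libraries. Some correlations within other groups were lower still, but these libraries were not closer to another group in the same way. KO Wnt5a replicates 1 and 3 correlated at 0.962, and replicate 3 reached at most 0.960 outside its group. KO Wnt5a replicate 1 correlated at 0.967 with replicate 2, and at 0.965 and 0.966 with KO Ctrl replicates 2 and 3. KO Ctrl replicate 1 correlated at 0.960 and 0.959 with the other KO Ctrl libraries, and outside its group at most at 0.959, with WT replicate 1. Wnt5a replicate 3 had the highest level of the 3 Wnt5a libraries for 27 of 27 measured megakaryocyte and platelet genes. For Prss34 it resembled its own group, with 34.8 FPKM against at most 0.024 FPKM in WT. Results that rest on this library are given with and without it.

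A gene was called when its Benjamini-Hochberg adjusted p in limma was under 0.05. Between KO Wnt5a and Wnt5a, 547 genes were called, 4.53% of those tested. Of these, 253 were higher in KO Wnt5a (2.09%) and 294 were lower (2.43%). Median-ratio scaling of the libraries gave 145 higher and 354 lower, so that the share of higher genes among the calls went from 46.3% to 29.1%. The median log2 difference of all genes was 0.07 in the main values and -0.01 after that scaling. Library weights (1074 higher and 607 lower, 63.9% higher), a fit of the 6 libraries alone (327 and 260, 55.7%) and a fit of the 12 libraries without the reserve label (507 and 391, 56.5%) turned the balance the other way. The fit of the 6 libraries alone kept 365 of the 547 main calls. The larger changes were mostly falls: 133 genes were at least 2-fold lower on the FPKM + 1 scale and 34 at least 2-fold higher. Without Wnt5a replicate 3, 56 genes were called higher (0.463%) and 130 lower (1.08%), and 184 of these 186 had been called with it. Leaving out Wnt5a replicate 1, KO Wnt5a replicate 2 or KO Wnt5a replicate 3 instead gave 274, 278 and 252 calls. The 3 libraries of each group did not overlap for 546 of the 547 called genes, against 30.5% of all genes tested. The call and the lack of overlap rest on the same values, so the latter is no separate support.

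The genotype difference without the Wnt5a label gave 438 calls over the same genes (3.62%), 256 higher (2.12%) and 182 lower (1.51%). Both comparisons called 134 genes, which is 24.5% of the calls with Wnt5a and 30.6% of those without. Of the 134, 64 were higher in both, 69 were lower in both, and 1, Ppef2, moved in opposite directions. Among the 547 genes called with Wnt5a, 508 (92.9%) had the same sign without it, while 67.4% of all genes tested had the same sign in both. The median size of the log2 difference of the 547 genes was 0.79 with Wnt5a, the values by which they were called, and 0.41 without. Across all genes the 2 differences correlated at r = 0.36 (Pearson, a description across genes, which are not independent replicates). The difference between the differences, tested as an interaction, called 7 genes (0.0579%), 3 with a positive (0.0248%) and 4 with a negative value (0.0331%), and 779 genes had an unadjusted p under 0.05.

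**Figure D1:**
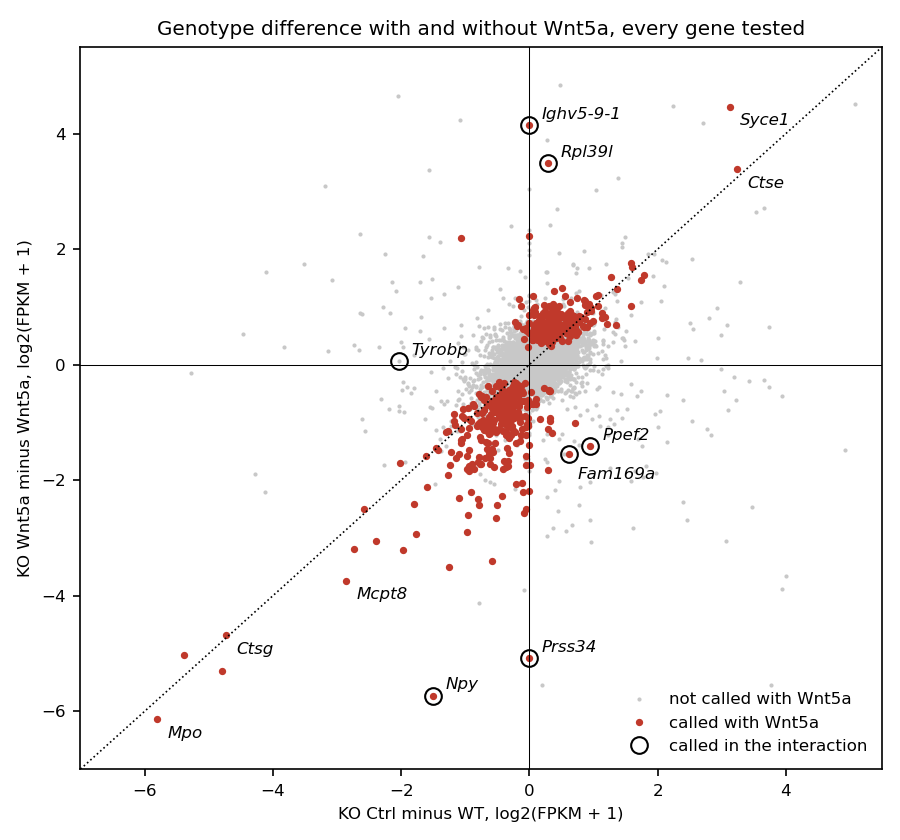
Genotype difference of every gene tested, as the difference of mean log2(FPKM + 1), without the Wnt5a label (horizontal axis) and with it (vertical axis). Red points are the 547 genes called with Wnt5a, rings are the 7 genes called in the interaction, and the dotted line marks equal differences. Mpo and Ctsg lie near the line at the lower left, and Prss34, Ighv5-9-1 and Rpl39l lie near 0 on the horizontal axis.

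Enzymes of myeloid primary granules were among the largest falls. Of 12 measured primary granule genes, 5 fell and none rose (41.7% called against 4.53% of all genes). The list median was -0.44 against 0.07 for all genes, and 5 falls were called with any 1 of the 6 libraries left out. Mpo, the myeloperoxidase of neutrophil and monocyte granules (chromosome 11, 87793581 to 87804413, plus strand), was at 67.4, 94.5 and 65.9 FPKM in Wnt5a replicates 1 to 3 and at 0.022, 0.234 and 0.011 FPKM in KO Wnt5a replicates 1 to 3. The groups were far apart, and the same gap stood without Wnt5a, with 53.7, 60.9 and 65.4 FPKM in WT and 0.273, 0.011 and 0.010 FPKM in KO Ctrl. The log2 difference was -6.13 ± 0.27 (SE, adjusted p = 3.96e-10) with Wnt5a and -5.80 (adjusted p = 9.55e-10) without. Ctsg, which encodes cathepsin G, was at 31.8, 43.9 and 27.8 FPKM in Wnt5a and at 0.447, 0.382 and 0.246 FPKM in KO Wnt5a (log2 difference -4.68 ± 0.48, adjusted p = 1.02e-04). It was listed at 0 in all 3 KO Ctrl libraries. Elane, neutrophil elastase, fell by 1.75 on the log2 scale (adjusted p = 0.00639). Ms4a3, a membrane protein of granulocyte-monocyte progenitors, fell by 1.48 ± 0.25 (adjusted p = 0.00244), and Plac8 fell by 1.25 ± 0.15 (adjusted p = 1.29e-04). Prtn3, proteinase 3, was not called, with 28.1 to 35.2 FPKM in Wnt5a and 21.4 to 24.8 FPKM in KO Wnt5a. The late neutrophil granule list had 1 measured member, which was not called.

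Genes of mast cells and basophils were also among the large falls. Of 12 measured members of that list, 5 fell and 1, Gata2, rose (50% called against 4.53% of all genes, list median -0.71). Without Wnt5a replicate 3, 3 fell and 1 rose. Mcpt8, a basophil protease, was at 39.8, 80.2 and 55.2 FPKM in Wnt5a and at 2.85, 3.08 and 3.996 FPKM in KO Wnt5a (log2 difference -3.74 ± 0.31, adjusted p = 1.36e-06). In WT it was at 6.69, 7.72 and 7.998 FPKM, below every Wnt5a library. Prss34, another basophil protease, was at 19.1, 54.2 and 34.8 FPKM in Wnt5a, at 0, 0 and 0.024 FPKM in KO Wnt5a, and at no more than 0.024 FPKM in any WT or KO Ctrl library. Its interaction passed the threshold (adjusted p = 1.93e-07) and was called in all 22 alternatives run for that test. Cpa3, the mast cell carboxypeptidase, was at 8.34, 18.6 and 11.8 FPKM in Wnt5a and at 2.94, 1.798 and 0.414 FPKM in KO Wnt5a (log2 difference -2.41 ± 0.35, adjusted p = 0.00105). Ms4a2, the beta chain of the high-affinity IgE receptor, fell by 1.53 (adjusted p = 0.0119), whereas Fcer1a, its alpha chain, was not called (adjusted p = 0.313). The 4 basophil and mast cell markers summed to 70.4 to 156 FPKM in Wnt5a and 4.81 to 7.01 FPKM in KO Wnt5a, beside 12.3 to 13.7 FPKM in WT and 0.364 to 2.55 FPKM in KO Ctrl. In these bulk libraries, fewer cells of a type and less RNA per cell cannot be told apart.

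**Figure D2:**
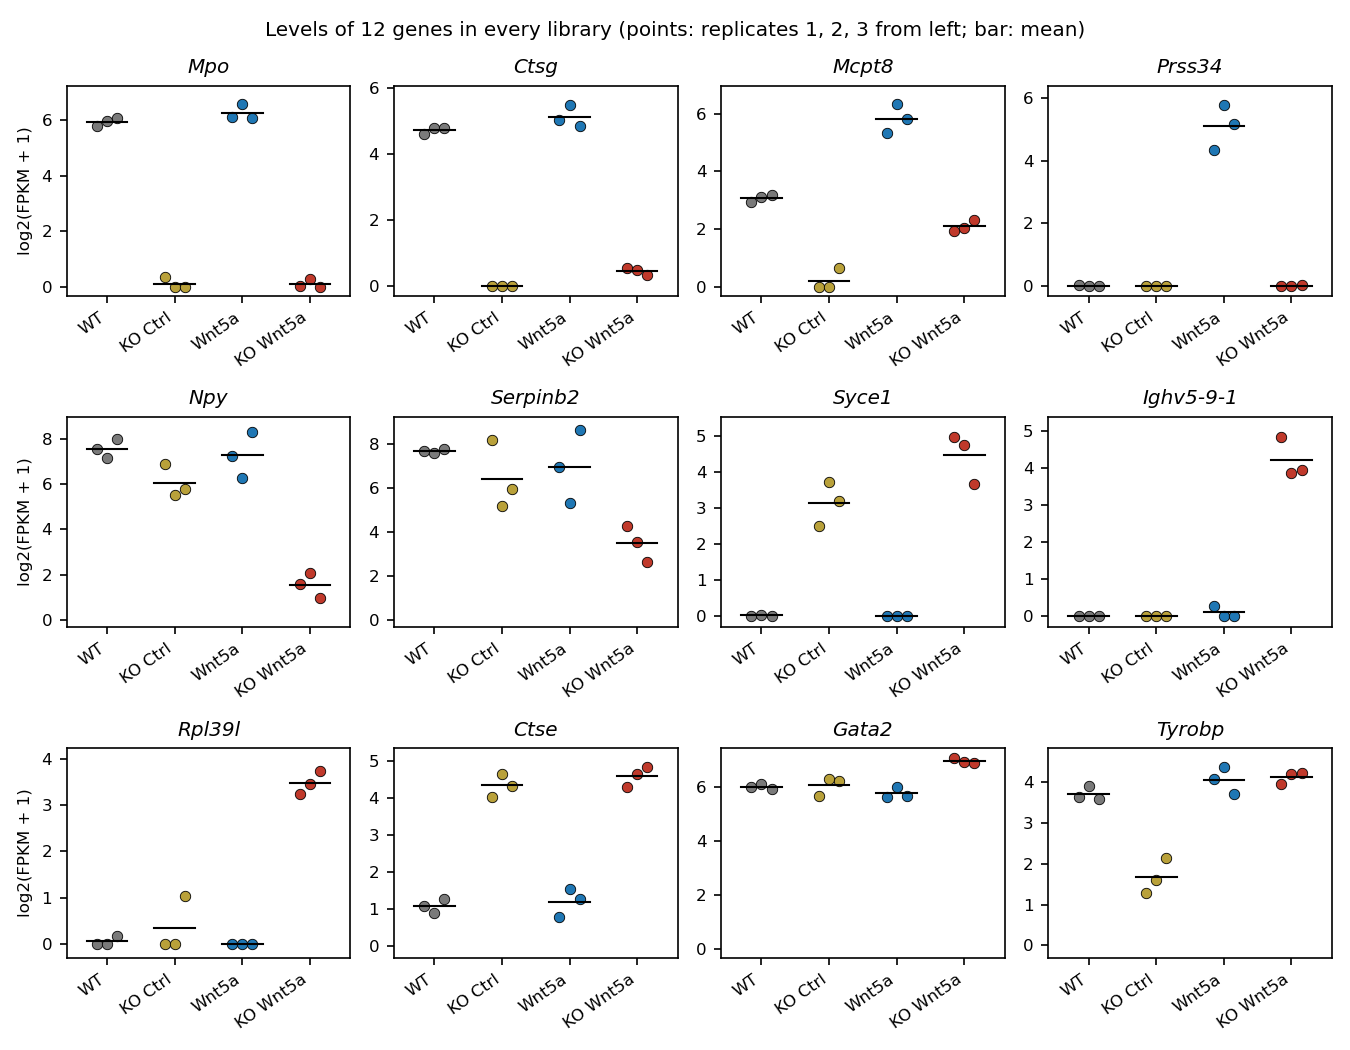
Levels of 12 genes as log2(FPKM + 1) in the 12 libraries of the WT, KO Ctrl, Wnt5a and KO Wnt5a groups, with points for replicates 1 to 3 from left to right and bars for group means. Mpo and Ctsg are low in both knockout groups, Prss34 is high only in the Wnt5a group of these 4, and Ighv5-9-1 and Rpl39l are high in the KO Wnt5a group, with 1 KO Ctrl library at 1.058 FPKM for Rpl39l.

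Mcpt8 and Ctsg lie in the granzyme and chymase locus of chromosome 14 (GRCm38, GENCODE M21 positions), and its members did not all move one way. This locus was singled out after its values were seen. Mcpt8 (56082166 to 56085273), Ctsg (56099881 to 56102574) and Gzmc (56231441 to 56234656) fell, all on the minus strand. Gzmc, a granzyme of cytotoxic lymphocytes, was at 3.38, 4.70 and 1.02 FPKM in Wnt5a and at 0.88, 0 and 0.572 FPKM in KO Wnt5a (log2 difference -1.36, adjusted p = 0.0168). Gzmb, the granzyme B gene at the end of the same row (56258838 to 56262260, minus strand), rose from 0.752, 1.76 and 0.514 FPKM to 18.4, 6.38 and 3.82 FPKM (log2 difference 2.19 ± 0.43, adjusted p = 0.00891). The Gzmb call was lost without Wnt5a replicate 3 (adjusted p = 0.059), with a pseudocount of 0.1 (0.0601) and in a fit of only the 6 libraries (0.0932). Between KO Ctrl and WT, Gzmb differed by -1.07 and was not called (adjusted p = 0.187). Its interaction of 3.26 did not pass the threshold (adjusted p = 0.0594).

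The 250 bases before the annotated start are shown for Ctsg and Gzmb, genes of 1 locus that moved in opposite directions, and for Prss34 and Npy, which had 2 of the largest interaction values. They come from RefSeq on GRCm38.p6, read 5′ to 3′ in the direction of transcription, and overlap no annotated GENCODE gene. Capitals mark any of 8 words found on either strand. These were the GATA factor words AGATAA or its variant AGATAG, then TGATAA or its variant TGATAG, the ETS factor words GAGGAA or the longer CAGGAAG, the nuclear receptor word AGGTCA, and the GC box GGGCGG. Genes and words were chosen after the values were seen.
Ctsg, chr14:56102575-56102824, minus strand: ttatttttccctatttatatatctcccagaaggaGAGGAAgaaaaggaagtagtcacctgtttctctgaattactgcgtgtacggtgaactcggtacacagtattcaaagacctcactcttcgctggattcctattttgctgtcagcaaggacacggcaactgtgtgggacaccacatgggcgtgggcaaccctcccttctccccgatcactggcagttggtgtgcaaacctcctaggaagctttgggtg
Gzmb, chr14:56262335-56262584, minus strand: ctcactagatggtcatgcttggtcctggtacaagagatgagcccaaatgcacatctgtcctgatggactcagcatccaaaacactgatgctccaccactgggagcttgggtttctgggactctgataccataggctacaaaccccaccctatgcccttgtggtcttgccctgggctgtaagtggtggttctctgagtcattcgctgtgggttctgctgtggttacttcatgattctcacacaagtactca
Prss34, chr17:25298144-25298393, plus strand: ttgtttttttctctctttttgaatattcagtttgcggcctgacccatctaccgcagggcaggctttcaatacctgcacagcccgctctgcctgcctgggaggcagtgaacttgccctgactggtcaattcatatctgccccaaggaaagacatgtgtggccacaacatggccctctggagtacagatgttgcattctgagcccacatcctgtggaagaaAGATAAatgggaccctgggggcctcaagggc
Npy, chr6:49822460-49822709, plus strand: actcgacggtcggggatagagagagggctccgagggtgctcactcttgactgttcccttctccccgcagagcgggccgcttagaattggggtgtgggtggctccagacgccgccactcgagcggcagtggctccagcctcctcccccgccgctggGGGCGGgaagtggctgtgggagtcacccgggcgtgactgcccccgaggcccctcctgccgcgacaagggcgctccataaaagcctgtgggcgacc
The Ctsg window held 1 match (GAGGAA, present in 23.3% of 32851 RefSeq windows of this length), the Prss34 window 1 (AGATAA, 9.99%) and the Npy window 1 (GGGCGG, 32.7%). The Gzmb window held none, and 75% of all windows held at least 1 of the 8 words. A match is only a match of letters.

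Of 27 measured megakaryocyte and platelet genes, 14 fell in KO Wnt5a and none rose (51.9% called against 4.53% of all genes). The list median was -1.003, and 26 of 27 had a negative sign. Without Wnt5a replicate 3, 9 fell and the median was -0.71. Leaving out another library in turn gave 8 falls without KO Wnt5a replicate 3, 9 without Wnt5a replicate 1 or KO Wnt5a replicate 2, and 19 without Wnt5a replicate 2. A fit of only these 6 libraries called 4. Cavin2, a caveolar coat protein abundant in platelets, was at 93.6, 83.5 and 144 FPKM in Wnt5a and at 30.5, 29.1 and 30.6 FPKM in KO Wnt5a (log2 difference -1.76 ± 0.20, adjusted p = 5.09e-05). Rab27b, a GTPase of platelet granule secretion, was at 169, 146 and 295 FPKM against 73.4, 60.1 and 47.2 FPKM (-1.69 ± 0.26, adjusted p = 0.00119). Plek, the platelet kinase substrate pleckstrin, was at 231, 204 and 355 FPKM against 111, 95.9 and 76.5 FPKM (-1.44 ± 0.24, adjusted p = 0.0026). All 3 genes were called with any single library left out, and their groups did not overlap. Rab27b was not called in the fit of only the 6 libraries (adjusted p = 0.0603).

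Receptor subunits of the platelet von Willebrand factor complex fell together with them. Gp9 was at 178, 155 and 265 FPKM in Wnt5a and at 111, 101 and 115 FPKM in KO Wnt5a (log2 difference -0.83 ± 0.16, adjusted p = 0.00474). Gp1ba fell by 1.45 (adjusted p = 0.00987) and Gp1bb by 1.08 (adjusted p = 0.00617), while Gp5 was not called (adjusted p = 0.221). The most abundant members missed the threshold: Pf4, platelet factor 4, was at 15600, 11606 and 26280 FPKM against 9813, 9012 and 6682 FPKM (adjusted p = 0.105), and Ppbp at 538, 345 and 1155 FPKM against 253, 160 and 103 FPKM (adjusted p = 0.0587). Slc6a4, the serotonin transporter, was at 17.5, 5.17 and 76.5 FPKM against 3.23, 0.655 and 0.689 FPKM, and its call (log2 difference -3.18 ± 0.71, adjusted p = 0.0246) was lost without Wnt5a replicate 1, KO Wnt5a replicate 2 or KO Wnt5a replicate 3 (adjusted p of 0.0705, 0.0882 and 0.104). Nfe2, a transcription factor of platelet formation, was at 309 to 332 FPKM and 306 to 323 FPKM in the 2 groups (adjusted p = 0.851). In KO Ctrl against WT, 3 of the 27 fell, where 1.51% of all genes were called lower, and the list median was -0.57. None of the 7 genes called in the interaction was a member.

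**Figure D3:**
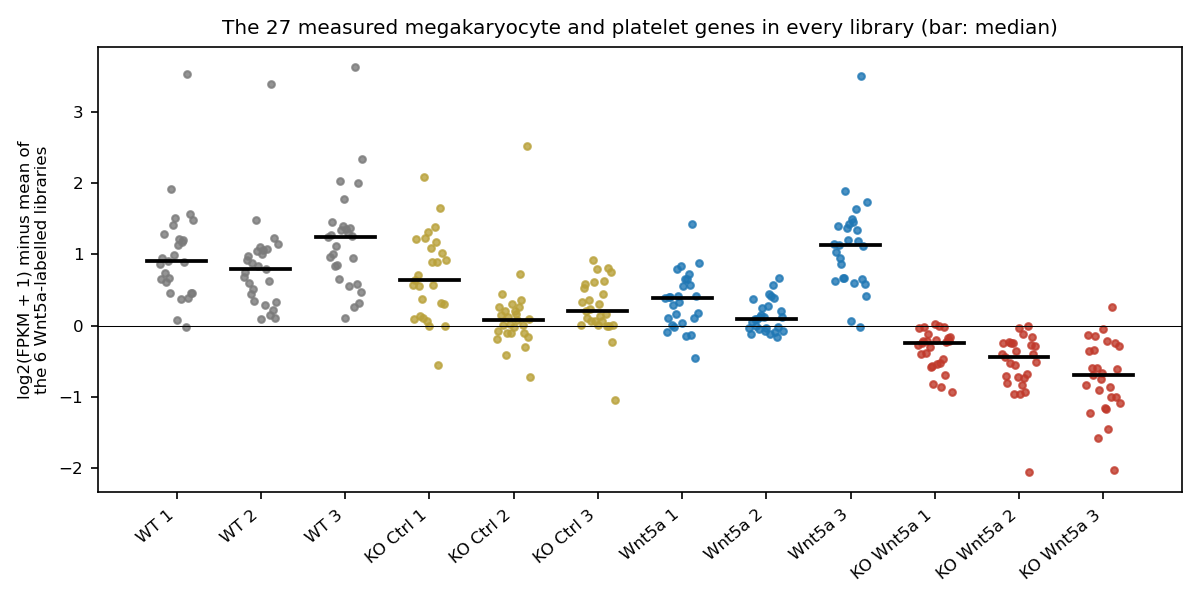
The 27 measured megakaryocyte and platelet genes in 12 libraries, each point 1 gene as log2(FPKM + 1) minus that gene's mean over the 6 Wnt5a-labelled libraries, with bars for medians. The KO Wnt5a libraries lie lowest, and Wnt5a replicate 3 lies level with the WT libraries and above the other Wnt5a libraries for every gene.

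Several other genes with large falls were high in Wnt5a replicate 3 in the same way. Serpinb2, the plasminogen activator inhibitor type 2, was at 123, 39.9 and 401 FPKM in Wnt5a and at 18.5, 10.6 and 5.25 FPKM in KO Wnt5a (log2 difference -3.498 ± 0.79, adjusted p = 0.0285). Its call was lost without Wnt5a replicate 1 (adjusted p = 0.0838), Wnt5a replicate 3 (0.122), KO Wnt5a replicate 2 (0.0771) or KO Wnt5a replicate 3 (0.120). Serpinb10 overlaps it on the same strand and was at 49.3 FPKM on average in Wnt5a and 3.42 FPKM in KO Wnt5a, and reads of the 2 genes may be hard to assign. Tgfb1i1, which encodes the focal adhesion protein Hic-5, was at 10.4, 4.94 and 15.9 FPKM against 0.867, 1.72 and 0.239 FPKM (log2 difference -2.50 ± 0.33, adjusted p = 2.66e-04). Between KO Ctrl and WT its difference was -0.06, and its interaction did not pass the threshold (adjusted p = 0.0532). Ly6g6f, a platelet surface protein of the immunoglobulin superfamily, was at 18.7, 7.23 and 48.5 FPKM against 2.74, 2.01 and 0.707 FPKM (-2.90 ± 0.55, adjusted p = 0.00891). Serpina3b fell by 2.65 ± 0.45 (adjusted p = 0.00329). Rasal1, a Ras GTPase-activating protein, fell by 2.60 ± 0.52 (adjusted p = 0.0119), a call lost without Wnt5a replicate 3 (adjusted p = 0.0661) or KO Wnt5a replicate 3 (0.054). Slpi and Ccl9 did not follow that library. Slpi, a secreted inhibitor of leukocyte proteases, was at 10.7, 12.3 and 6.01 FPKM against 1.07, 0.17 and 0 FPKM (-2.94 ± 0.54, adjusted p = 0.00749). Ccl9, a CC chemokine, was at 9.47, 14.5 and 9.55 FPKM against 1, 1.47 and 0.938 FPKM (-2.50 ± 0.26, adjusted p = 2.09e-05).

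Adaptors in the list of ITAM and Fc receptor signalling pass signals from immune receptors to kinases. Of 14 measured members of that list, 4 fell and none rose (28.6% called against 4.53% of all genes, list median -0.14). Without Wnt5a replicate 3, 3 fell. Fcer1g, the shared Fc receptor gamma chain, was at 418, 377 and 632 FPKM in Wnt5a and at 259, 242 and 228 FPKM in KO Wnt5a (log2 difference -0.93 ± 0.18, adjusted p = 0.00778). Fcgr2b, the inhibitory IgG receptor, fell by 1.69 ± 0.33 (adjusted p = 0.00671). Clec12a, an inhibitory lectin receptor of myeloid cells, was at 3.26, 3.499 and 2.40 FPKM against 1.04, 0.554 and 1.04 FPKM (-1.11 ± 0.15, adjusted p = 3.76e-04). Lat, an adaptor of T cells, mast cells and platelets, fell by 0.63 ± 0.12 (adjusted p = 0.00666), a call lost without Wnt5a replicate 3 (adjusted p = 0.055). The table also holds LILR4B, a leukocyte immunoglobulin-like receptor outside this list, at 37.8, 26.9 and 57.0 FPKM against 6.72, 5.86 and 1.12 FPKM (-3.04 ± 0.64, adjusted p = 0.0187), which was not called without Wnt5a replicate 1 (adjusted p = 0.0618), Wnt5a replicate 3 (0.102) or KO Wnt5a replicate 3 (0.0802).

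Of 11 measured erythroid genes, 3 fell and none rose (27.3% called against 4.53% of all genes, median -0.13). Without Wnt5a replicate 3, 2 fell. Gata1, the transcription factor of erythroid, megakaryocyte and mast cell development, was at 71.9, 69.9 and 97.6 FPKM in Wnt5a and at 46.8, 45.2 and 33.5 FPKM in KO Wnt5a (log2 difference -0.92 ± 0.17, adjusted p = 0.00399). Its relative Gata2, a factor of stem cells and mast cells, changed the other way, from 48.0, 62.6 and 49.1 FPKM to 132, 118 and 116 FPKM (1.19 ± 0.18, adjusted p = 0.00105). The groups of both genes did not overlap, and both were called with any single library left out. Between KO Ctrl and WT, Gata2 differed by 0.05 and Gata1 by -0.37, neither of them called, and the interaction of neither passed the threshold (adjusted p of 0.143 for Gata2 and 0.748 for Gata1). Blvrb, biliverdin reductase B, fell by 0.91 ± 0.14 (adjusted p = 8.01e-04). Nxpe2 fell by 0.46 ± 0.12 (adjusted p = 0.0429), a call lost without any 1 of the 6 compared libraries except Wnt5a replicate 2.

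Members of the LT-HSC list went both ways. Of 39 measured, 5 rose and 2 fell (17.9% called against 4.53% of all genes), and the median of 0.05 was close to the 0.07 of all genes. Besides Gata2 these included Mecom, Egr1, Kit and Tie1 among the rises and Trpc6 among the falls. Without Wnt5a replicate 3, 1 rose and none fell. Mecom, which encodes the stem cell factor EVI1, was at 8.81, 11.8 and 8.12 FPKM in Wnt5a and at 19.6, 15.8 and 19.2 FPKM in KO Wnt5a (log2 difference 0.87 ± 0.17, adjusted p = 0.00627, and 0.0502 without Wnt5a replicate 3). Kit, the stem cell factor receptor and a gene of the sort gate, was at 17.2, 19.4 and 12.7 FPKM against 28.2, 25.5 and 33.1 FPKM (0.79 ± 0.18, adjusted p = 0.0173), a call lost without Wnt5a replicate 3 (adjusted p = 0.123) or KO Wnt5a replicate 3 (0.0973). Kit also rose in KO Ctrl against WT, by 0.86 (adjusted p = 0.0121). Ly6a, which encodes Sca-1, was at 143, 129 and 99.1 FPKM against 172, 165 and 201 FPKM and was not called (adjusted p = 0.138), nor was Cd34 (adjusted p = 0.594). Slamf1, which encodes CD150, was at 33.1, 30.5 and 49.0 FPKM against 22.9, 21.8 and 23.6 FPKM (adjusted p = 0.0517).

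**Figure D4:**
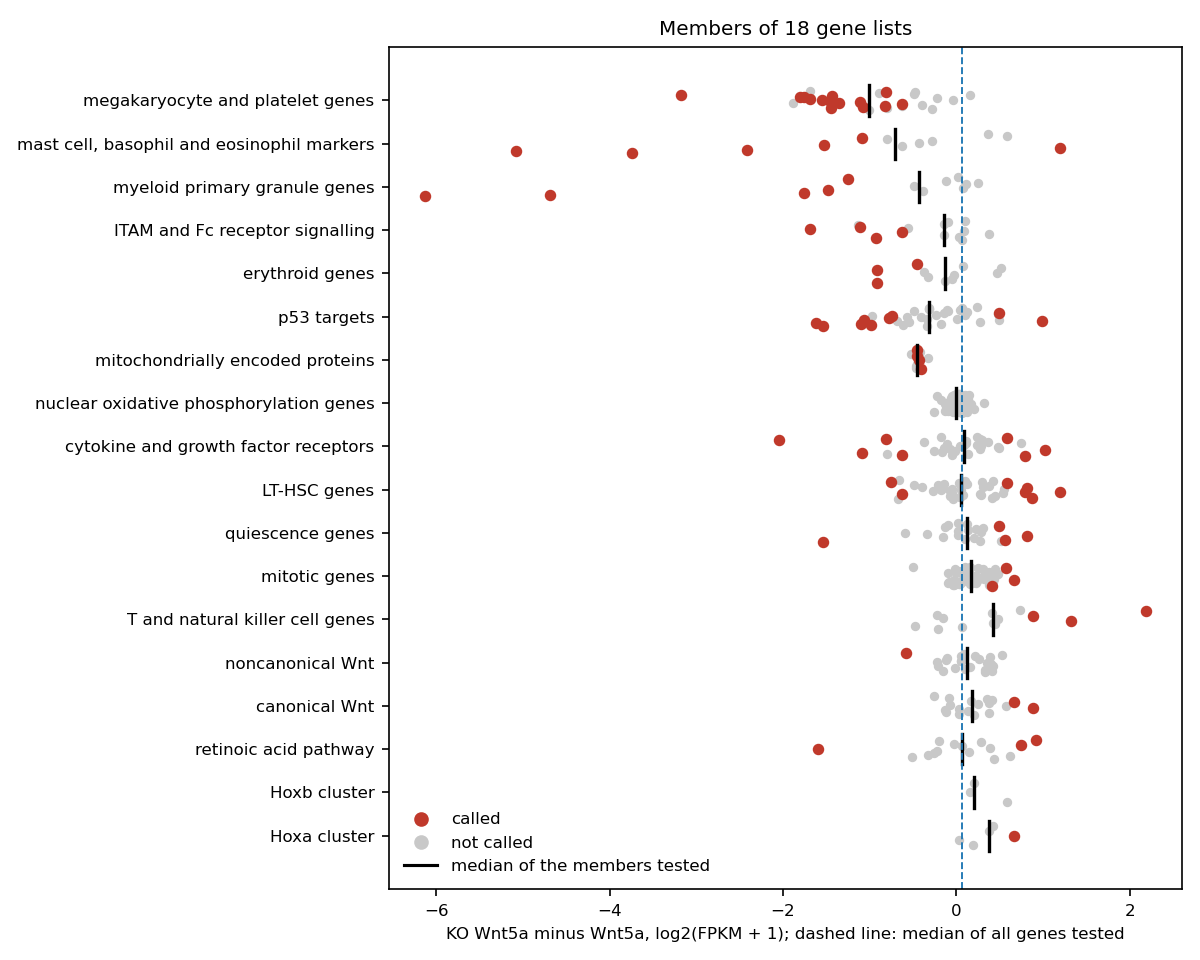
Members of 18 gene lists, each point 1 measured gene by its KO Wnt5a minus Wnt5a difference in log2(FPKM + 1), red where called, with bars for list medians and a dashed line at the median of all genes, 0.07. The megakaryocyte, mast cell and primary granule lists reach farthest to the left, and the nuclear oxidative phosphorylation list lies close to 0.

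Hoxb genes, which lie near the deleted element, did not reach the threshold with all 18 libraries fitted at equal weight, and no value in the table checks the deletion itself. Of the 12 Hoxb cluster genes, 3 passed the filter and none was called. Library weights called 1 of them, Hoxb2, higher (0.57, adjusted p = 0.0193), as did a fit of the 12 libraries without the reserve label (0.58, adjusted p = 0.0455). Hoxb2 was at 3.201, 4.26 and 2.93 FPKM in Wnt5a and at 6.003, 4.999 and 5.93 FPKM in KO Wnt5a, with no overlap (log2 difference 0.58 ± 0.19, adjusted p = 0.0956). Hoxb5os, an antisense transcript across Hoxb5 and Hoxb6, was at 1.08 to 2.12 FPKM against 1.81 to 2.19 FPKM (adjusted p = 0.64). Hoxb7 was at 0.383 to 1.39 FPKM against 0.263 to 1.68 FPKM (adjusted p = 0.812). Hoxb4 did not exceed 0.852 FPKM in any of the 6 libraries, and Hoxb1 and Hoxb13 were listed at 0. Hoxb genes summed to 7.21 to 8.42 FPKM in Wnt5a and to 12.3 to 13.95 FPKM in KO Wnt5a, beside 6.31 to 6.94 FPKM in WT and 8.11 to 11.4 FPKM in KO Ctrl. The summed level was thus not lower in the knockout libraries, and no test was made of the sum. In the Hoxa cluster, 5 genes were measured and 1, Hoxa7, rose (0.66, adjusted p = 0.0451), a call lost with any 1 of the 6 libraries left out.

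Among 15 measured genes of the retinoic acid pathway, 2 rose and 1 fell (20% called against 4.53% of all genes, median 0.06). Without Wnt5a replicate 3, 1 rose and 1 fell. Dhrs3, which turns retinaldehyde back into retinol, was at 34.6, 28.2 and 74.4 FPKM in Wnt5a and at 15.05, 12.5 and 12.1 FPKM in KO Wnt5a (log2 difference -1.597 ± 0.32, adjusted p = 0.0105). Without KO Wnt5a replicate 3 it was not called (adjusted p = 0.0527). Tgm2, a transglutaminase long used as a retinoic acid response gene, was at 3.93, 4.01 and 3.73 FPKM against 9.20, 8.35 and 7.24 FPKM (0.92 ± 0.16, adjusted p = 0.00291). The receptors Rara, Rarg and Rxrb were measured and not called (adjusted p of 0.311, 0.125 and 0.138).

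Of 24 measured genes of noncanonical Wnt signalling, 1 fell and none rose (4.17% called against 4.53% of all genes, median 0.12). That gene was Nlk, a kinase that can act on TCF factors, at 18.1, 16.8 and 21.2 FPKM in Wnt5a and 11.5, 11.4 and 13.4 FPKM in KO Wnt5a (log2 difference -0.58, adjusted p = 0.0322), and of these 6 libraries only Wnt5a replicate 2 could be left out with the call kept. Ryk, a Wnt5a receptor, was at 10.5 to 12.2 FPKM against 12.3 to 16.4 FPKM (adjusted p = 0.246), and Cdc42 at 463 to 483 FPKM against 415 to 449 FPKM (adjusted p = 0.681). Of 18 measured canonical Wnt genes, Tcf7 and Myc rose and none fell (11.1% called, median 0.18). Tcf7, which encodes TCF-1, was at 2.62, 2.79 and 2.83 FPKM against 5.81, 4.71 and 7.40 FPKM (0.88 ± 0.20, adjusted p = 0.0146). Myc was at 74.6, 79.5 and 55.1 FPKM against 120.3, 117 and 94.8 FPKM (0.67, adjusted p = 0.0379), and rose by the same 0.67 between KO Ctrl and WT (adjusted p = 0.0429). Neither was called without Wnt5a replicate 1 or without Wnt5a replicate 3, and with each KO Wnt5a library left out in turn 1 of the 2 was called.

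Of 37 measured p53 targets, 7 fell, 2 rose and 28 were not called in KO Wnt5a against Wnt5a (24.3% called against 4.53% of all genes, median -0.32, with 12 of 37 positive), and without Wnt5a replicate 3, 5 fell and none rose. Cdkn1a, the gene of p21, an inhibitor of cyclin-dependent kinases, was at 82.7, 87.4 and 162 FPKM in Wnt5a and at 34.7, 37.3 and 34.6 FPKM in KO Wnt5a (log2 difference -1.54 ± 0.21, adjusted p = 3.95e-04). Phlda3, an inhibitor of Akt, was at 27.2, 27.0 and 45.9 FPKM against 11.9, 9.04 and 8.83 FPKM (-1.62 ± 0.20, adjusted p = 1.02e-04). Both genes were called with any single library left out and also fell without the Wnt5a label, by 1.10 and 1.14. Pmaip1, the death gene Noxa, was at 4.27, 4.20 and 5.25 FPKM against 2.13, 1.30 and 1.40 FPKM (-1.10 ± 0.17, adjusted p = 0.00114). Gadd45g fell by 1.06 ± 0.18 (adjusted p = 0.00186) and Ccng1, cyclin G1, by 0.99 (adjusted p = 0.00233), whereas Gadd45a rose by 0.99 (adjusted p = 0.0352). Mdm2, the ubiquitin ligase of p53, was not called (adjusted p = 0.273), and Trp53 was not analysed because its row has missing values. In KO Ctrl against WT, 9 of the 37 targets fell and none rose (median -0.40), where 1.51% of all genes were called lower.

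Cell cycle genes were described by 2 lists. In the quiescence list, 3 of 21 measured members rose and 1, Cdkn1a, fell (19.05% called against 4.53% of all genes, median 0.12). Without Wnt5a replicate 3 the 3 rises were lost. Cdkn2c, the inhibitor p18, was at 10.5, 12.1 and 11.8 FPKM in Wnt5a and at 16.6, 16.2 and 19.6 FPKM in KO Wnt5a (log2 difference 0.56 ± 0.13, adjusted p = 0.0197), and its call was also lost without Wnt5a replicate 1 or KO Wnt5a replicate 3. Egr1, an early-response factor with a role in stem cell dormancy, was at 27.7, 30.9 and 24.4 FPKM against 51.7, 52.2 and 44.1 FPKM (0.81 ± 0.18, adjusted p = 0.0126), a call also lost without KO Wnt5a replicate 2 (adjusted p = 0.0578). Of 58 measured mitotic genes, 3 rose and none fell (5.17% called against 4.53% of all genes, median 0.17, with 49 of 58 positive). Without Wnt5a replicate 3 or KO Wnt5a replicate 2 none was called. Top2a, topoisomerase II alpha, was at 132, 133 and 106 FPKM against 160.2, 174 and 159.9 FPKM (0.41 ± 0.09, adjusted p = 0.0105). In KO Ctrl against WT, 18 of the 58 mitotic genes rose and none fell (median 0.43), where 2.12% of all genes were called higher.

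Lymphoid genes gave a few rises. In the T and natural killer cell list, 3 of 13 measured members rose and none fell (23.1% called against 4.53% of all genes, median 0.42). The 3 were Gzmb, Tcf7 and Cd7. Cd7, a surface receptor of early lymphoid and T cells, was at 3.02, 2.93 and 2.87 FPKM in Wnt5a and at 9.01, 7.33 and 10.5 FPKM in KO Wnt5a (log2 difference 1.33 ± 0.24, adjusted p = 0.00423). Without Wnt5a replicate 3, 1 of the 3 was called. In KO Ctrl against WT, 8 of 12 measured B lymphoid genes rose and none fell (median 0.92), where 2.12% of all genes were called higher. Between KO Wnt5a and Wnt5a, 2 of the 12 rose and none fell (16.7% called against 4.53% of all genes, median 0.45). One was Cd24a (0.72, adjusted p = 0.0041) and the other Il7r, the interleukin 7 receptor, at 1.39, 2.04 and 1.98 FPKM against 7.44, 4.25 and 3.10 FPKM (1.02 ± 0.23, adjusted p = 0.0138), a call lost without Wnt5a replicate 1 (adjusted p = 0.0732) or KO Wnt5a replicate 1 (0.0639). T and NK markers summed to 52.2 to 72.0 FPKM in Wnt5a and 47.3 to 57.8 FPKM in KO Wnt5a, and B cell markers to 19.7 to 29.6 FPKM and 24.1 to 25.8 FPKM, so both sums overlapped. Their part in these rises was not tested.

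Immunoglobulin heavy chain variable segments went in both directions. Of 113 listed, 7 passed the filter, 2 were higher and 3 were lower. That is 71.4% of the 7 against 4.53% of all genes, but a segment could pass the filter through 1 group alone. Ighv5-9-1 was at 0.189, 0 and 0 FPKM in Wnt5a and at 27.8, 13.7 and 14.4 FPKM in KO Wnt5a (adjusted p = 1.25e-09), and it was listed at 0 in all WT and KO Ctrl libraries. Ighv8-8 was listed at 0 in the 3 Wnt5a libraries and was at 1.39, 7.56 and 3.97 FPKM in KO Wnt5a (adjusted p = 6.27e-04). Ighv5-4, at 3.63, 4.46 and 2.83 FPKM in Wnt5a, and Ighv10-3, at 1.598, 1.14 and 2.23 FPKM, were listed at 0 in the 3 KO Wnt5a libraries (adjusted p of 8.01e-04 and 0.00168). No log2 difference between KO Wnt5a and Wnt5a is given where 1 of the groups is listed at 0, because it depends on the 1 added to each FPKM. These short segments are close in sequence, so their reads may be assigned to the wrong member.

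Among the other rises, several were present in both knockout groups. Syce1, a component of the synaptonemal complex of meiosis, was listed at 0 in the 3 Wnt5a libraries and was at 30.6, 25.8 and 11.8 FPKM in KO Wnt5a (adjusted p = 1.55e-08). In KO Ctrl it was at 4.62, 12.3 and 8.07 FPKM and in WT at no more than 0.019 FPKM. Ctse, the aspartic protease cathepsin E, was at 0.72, 1.95 and 1.41 FPKM in Wnt5a and at 18.4, 24.0 and 27.6 FPKM in KO Wnt5a (log2 difference 3.38 ± 0.20, adjusted p = 5.08e-09), with a difference of 3.24 between KO Ctrl and WT. Rgs2, a regulator of G protein signalling, was at 15.8, 18.8 and 14.8 FPKM against 40.4, 32.6 and 45.6 FPKM (1.21 ± 0.15, adjusted p = 1.79e-04), with 1.07 without Wnt5a. Xaf1, an interferon-inducible gene, rose by 1.30 ± 0.19 (adjusted p = 5.57e-04) and by 1.36 without Wnt5a. Of 43 measured interferon response genes, Xaf1 and Parp9 rose and none fell (4.65% called against 4.53% of all genes). Of these 2, 1 was called without Wnt5a replicate 3. Lbhd2 was at 10.7, 11.7 and 7.85 FPKM against 24.5, 21.7 and 26.2 FPKM (1.19 ± 0.20, adjusted p = 0.00239). Mc5r and Ercc2, the last genes by size of rise, had calls that were lost without Wnt5a replicate 3 (adjusted p of 0.0916 and 0.173). The Mc5r call was also lost without KO Wnt5a replicate 2 (0.0522) or KO Wnt5a replicate 3 (0.0773). The Ercc2 call was lost without any 1 of the 6 compared libraries except Wnt5a replicate 1. It was also lost with quantile normalization (0.0599) or median-ratio scaling (0.0693).

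Growth factor receptors were split, with 3 of 33 measured members higher and 4 lower (21.2% called against 4.53% of all genes, median 0.09). Flt1, a VEGF receptor, was at 5.18, 3.27 and 10.1 FPKM in Wnt5a and at 1.39, 0.297 and 0.346 FPKM in KO Wnt5a (log2 difference -2.04 ± 0.30, adjusted p = 5.82e-04). Between KO Ctrl and WT it differed by -0.12 (adjusted p = 0.873), but the interaction did not pass the threshold (adjusted p = 0.111). Csf2rb2, a beta chain of the interleukin 3 receptor, fell by 1.09 ± 0.25 (adjusted p = 0.0176) and Kdr, another VEGF receptor, by 0.81 ± 0.19 (adjusted p = 0.0219). Neither was called without Wnt5a replicate 3 (adjusted p of 0.127 and 0.144). Csf2rb2 was also not called without KO Wnt5a replicate 1 (0.0755) or KO Wnt5a replicate 2 (0.0607). Kdr was also not called without KO Wnt5a replicate 2 (0.0564) or KO Wnt5a replicate 3 (0.115). Of the 33, 1 rose and 1 fell without Wnt5a replicate 3. Tie1, an endothelial and stem cell receptor kinase, rose by 0.59 ± 0.15 (adjusted p = 0.0391), and its call was lost without any 1 of the 6 compared libraries except Wnt5a replicate 2. The stromal and endothelial markers Col1a1, Cdh5 and Cxcl12 together did not exceed 0.246 FPKM in any of the 6 libraries.

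Transcripts of the mitochondrial genome had lower levels in KO Wnt5a. All 11 measured mitochondrial protein genes had a negative sign and 4 fell (36.4% called against 4.53% of all genes, median -0.46). Without Wnt5a replicate 1, Wnt5a replicate 3 or KO Wnt5a replicate 3, none was called. The gene mt-Nd5, a subunit of complex I, was at 661, 572 and 611 FPKM in Wnt5a and at 462, 449.9 and 446 FPKM in KO Wnt5a (log2 difference -0.44 ± 0.10, adjusted p = 0.0163). mt-Cytb, of complex III, was at 4254, 3615 and 3786 FPKM against 2833, 2901 and 2724 FPKM (-0.46 ± 0.10, adjusted p = 0.0164). After quantile normalization the difference was -0.16 for mt-Cytb (adjusted p = 0.561) and -0.42 for mt-Nd5 (0.0511). The calls of mt-Co1 and mt-Nd1, also among the 4 falls, were lost there too (0.340 and 0.595). In that setting 2 different members of the list were called lower. The list median between KO Ctrl and WT had the other sign, 0.23. Of 75 measured nuclear oxidative phosphorylation genes, none was called and the median was 0.00. Of 79 cytosolic ribosomal protein genes, 2 rose and none fell (2.53% called against 4.53% of all genes).

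The 7 genes called in the interaction had distinct patterns over the 4 groups. Npy, which encodes neuropeptide Y, was at 152, 75.5 and 313 FPKM in Wnt5a, at 2.04, 3.16 and 0.949 FPKM in KO Wnt5a, at 184, 143 and 251 FPKM in WT and at 116, 45.2 and 54.0 FPKM in KO Ctrl. Only the KO Wnt5a libraries of these 4 groups were under 45 FPKM (log2 difference -5.73 ± 0.45, adjusted p = 6.14e-06, with an interaction of -4.23, adjusted p = 0.0206). Its interaction was called in 15 of 22 alternatives, and the adjusted p over them ran from 5.62e-04 to 0.3. Rpl39l, a ribosomal protein paralog, was listed at 0 in Wnt5a and was at 8.53, 10.02 and 12.5 FPKM in KO Wnt5a, against at most 0.124 FPKM in WT and 1.058 FPKM in KO Ctrl (interaction adjusted p = 9.56e-05). Tyrobp, the ITAM adaptor DAP12, went the other way round: it was at 15.9, 19.9 and 12.2 FPKM in Wnt5a and at 14.4, 17.4 and 17.8 FPKM in KO Wnt5a, with no call (adjusted p = 0.9), but at 11.4, 13.9 and 10.97 FPKM in WT and 1.45, 2.02 and 3.42 FPKM in KO Ctrl. Its interaction was 2.09 ± 0.27 (adjusted p = 0.00124). Ppef2, a calcium-binding phosphatase, was at 2.17, 1.62 and 1.92 FPKM in Wnt5a and at 0, 0.245 and 0.046 FPKM in KO Wnt5a, while KO Ctrl, at 2.43, 2.78 and 2.70 FPKM, was above WT, at 1.61, 0.706 and 0.524 FPKM (interaction -2.35 ± 0.25, adjusted p = 1.05e-04). Fam169a fell by 1.54 ± 0.25 with Wnt5a (adjusted p = 0.00142) and differed by 0.62 without it (adjusted p = 0.172), an interaction of -2.16 (adjusted p = 0.0178) that was called in 15 of 21 alternatives. The others were Prss34 and Ighv5-9-1, described with their families.

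Several of the strongest changes lay on chromosome 11, which also carries the Hoxb cluster (96194316 to 96368256). This pattern was noticed after the values were seen and is given as a description. On chromosome 11, 67 of 1017 tested genes were called (6.59%), against 479 of 11040 (4.34%) on the other chromosomes together. Single chromosomes reached similar or higher shares, with 29 of 447 genes (6.49%) on chromosome 15 and 5 of 34 (14.7%) on the mitochondrial genome. Distances were taken between the midpoints of gene and cluster. In the 10 Mb before the midpoint of the cluster, 11 of 79 tested genes were called (13.9%), 7 of them also in KO Ctrl against WT, and in the 10 Mb after it 8 of 156 (5.13%). Mpo lies at -8.48 Mb. Gm11505, an antisense gene across Mpo, was at 35.6, 47.8 and 33.0 FPKM in Wnt5a and listed at 0 in KO Wnt5a, and these unstranded reads cannot be told from those of Mpo. AA465934, at -12.99 Mb and near Ccl9, was at 150, 181 and 150 FPKM against 1.97, 6.36 and 4.58 FPKM (log2 difference -5.02, adjusted p = 5.08e-09). Chad, the cartilage matrix protein chondroadherin, and Acsf2, an acyl-CoA synthetase of mitochondria, lie at -1.71 and -1.70 Mb and rose in both comparisons. Chad was at 15.2, 14.9 and 9.11 FPKM in Wnt5a and at 36.1, 37.4 and 44.6 FPKM in KO Wnt5a (1.55 ± 0.24, adjusted p = 0.00117), and Acsf2 at 1.66, 2.12 and 1.73 FPKM against 5.78, 7.30 and 8.44 FPKM (1.52 ± 0.16, adjusted p = 2.23e-05). Chad overlaps Acsf2 on the opposite strand, so their reads cannot be separated either. The labels used here give no strain background, and a part of the region around the deleted element in these differences was not tested.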

How the data were processed

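The deposited table holds FPKM values per gene. Per the submitters' processing notes, the authors used CASAVA 1.8.2, TopHat2 2.0.10, Cufflinks and mm10; that the FPKM unit fits was judged from the values. Each of the 18 columns was matched to a sample by its name. The 16 genes with missing values were left out. GENCODE M21 gave symbols and positions (44022 identifiers matched, 327 kept the deposited symbol).

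Values were taken as log2(FPKM + 1). limma 3.58.1 in R 4.3.3, with trend and robust moderation, fitted 1 mean per group over all 18 libraries in 6 groups. Each contrast was adjusted by Benjamini-Hochberg over the 12084 genes, and a fold change is on this scale, which understates changes of low genes. The fit was tested on simulated data. Errors are SE of the fit. Fragment depth was estimated from the smallest steps between low values of 6730 single-transcript genes, and 3 fragments on 1 kb correspond to 0.0736 to 0.134 FPKM over the 12 libraries of the 4 groups. Fragments are amplified, so they are not independent molecules. The kit does not mark strand, so overlapping genes cannot be separated.

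The members, the 35 gene lists and the tests were chosen with earlier results of these data known. Named genes were the 14 largest rises and 14 largest falls among called genes with groups that did not overlap and a higher mean of at least 5 FPKM, without pseudogenes or clone names. Up to 4 called members with the smallest p were added from each list with at least 3 called, with the Hoxb and gate genes, Wnt5a and 6 interaction genes. Other genes named were chosen after their values were seen. Alternatives changed the scaling, pseudocount, filter, moderation, weights, libraries, a replicate block and each library in turn. Some results are not reported here.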

Additional observations from a re-analysis of the deposited data

Results flagged for a closer look

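For 7 genes the genotype difference with Wnt5a differed from that without it in the interaction test of limma (log2 scale, Benjamini-Hochberg adjusted p under 0.05). The difference of the differences was -2.35 for Ppef2, -4.23 for Npy, 2.09 for Tyrobp, 3.199 for Rpl39l, -2.16 for Fam169a, -5.07 for Prss34 and 4.14 for Ighv5-9-1. The values for Rpl39l, Prss34 and Ighv5-9-1 involve groups listed at or near 0 and so depend on the 1 added to each FPKM. Prss34 and Tyrobp were called in all 22 alternatives run, Ppef2 and Ighv5-9-1 in all 21, Rpl39l in 20 of 22, Npy in 15 of 22 and Fam169a in 15 of 21.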

How the results depend on the processing

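The 547 calls of KO Wnt5a against Wnt5a became 345 with no filter on low values, 1681 with library weights, 898 with only the 12 libraries that lack the reserve label and 327 with a replicate block. The main calls kept under these settings were 305, 546, 519 and 310. A fit of only the 6 compared libraries gave 587 calls and kept 365 of the main calls. Leaving out 1 of the 6 compared libraries gave 186 to 507, and 1 KO Ctrl or WT library, which share the estimate of spread, 415 to 640. The 7 interaction calls became 18 with quantile normalization, 15 with a pseudocount of 0.1, 13 with no filter, 4 with a mean of at least 5 FPKM, 64 with library weights and 14 over nuclear coding genes of at least 300 bp, and leaving out 1 of the 12 libraries gave 5 to 25. The 438 calls of KO Ctrl against WT became 1515 with library weights, 872 with the 12 libraries and 235 with a replicate block, and 130 to 493 with 1 of its own 6 libraries left out. The cause of these shifts was not tested, but leaving out a library also leaves fewer samples. Deviations from the group mean of same-numbered KO Wnt5a and Wnt5a libraries correlated at 0.05, -0.06 and -0.08, and those of other numbers at -0.06 to 0.11. Same-numbered KO Ctrl and WT libraries correlated at 0.03, 0.08 and 0.01. With 3 libraries per group, these values cannot show whether equal numbers shared an animal or day. The block left 8 interaction calls. Of the 71 named genes called, 53 were called with only the 6 libraries, 58 with the block, 46 without Wnt5a replicate 3 and 71 with library weights. Calls lost with only the 6 libraries included Ly6g6f (adjusted p = 0.119), Dhrs3 (0.0784), Serpina3b (0.068), Gp9 (0.0677), Fcer1g (0.061) and Rab27b (0.0603). Hoxb7 changed sign with library weights (-0.0021), without Wnt5a replicate 3 (-0.0029) and without KO Wnt5a replicate 2 (-0.0765), and leaving out 1 library gave up to 0.4668. The KO Wnt5a minus Wnt5a difference of Tyrobp changed sign with quantile normalization (-0.0198), median-ratio scaling (-0.0138) and without Wnt5a replicate 3 (-0.1062), and leaving out 1 library gave up to 0.2264. No named gene that was called changed sign in any alternative run. Where a gene did not pass a stricter filter, or a list kept under 3 members, that alternative gave no value. Genes under 1 FPKM were mostly not tested, and 3 libraries per group limit the precision.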
